A study of Mus musculus with 4 samples.

Results

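The entries described here are the guides against 3 microRNA families, let-7, miR-34 with miR-449, and miR-200, in a pooled CRISPR-Cas9 knockout screen of mouse embryonic stem cells. They were found by name alone, as entries called let-7 or miR-98, miR-34 or miR-449, and miR-200, miR-141 or miR-429. The rule found 25 entries with 98 guides, among 1132 microRNA entries with 4229 guides and 22510 entries with 121918 guides in all. let-7 has 14 entries and 55 guides, miR-34 with miR-449 has 6 entries and 23 guides, and miR-200 has 5 entries and 20 guides. The number of guides is 4 in 23 of the 25 entries, and 3 in let-7c-1 and miR-449b.

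The cells were E14, an established mouse embryonic stem cell line, with a tdTomato reporter of the endogenous retrovirus MERVL and a treatment given as none in the labels. Both groups carry the reporter, were transduced with the same lentiviral library for 24 h with polybrene at 4 μg/mL, and were then under puromycin at 2 μg/mL for 48 h. One group, with 2 libraries, is of reporter-positive cells sorted at day 5, and the other, also with 2 libraries, is of total cells. The titles call the libraries of a group sequencing repeats, and nothing says that they came from separate cultures. The authors' deposited table gives 1 comparison per entry and no value per library, so no entry has a spread between libraries, depth per library is unknown, and no test across libraries could be made. The sorted cells came to 3.84 per guide of the library, which holds 130209 guides by the labels. The genes expressed by these cells were not measured, so neither the cell type nor the presence of each microRNA could be checked.

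The authors' deposited table does not say which group is the numerator. Positive values are taken to mean that guides were more abundant in MERVL-positive cells, because the study's title links Ints7 loss to active MERVL and Ints7 ranks 157 for positive and 18586 for negative change per the authors' deposited table. By size of change Ints7 is a weak anchor, since its log2 fold change was 0.14 and ranked 7877 of 22510 entries. The false discovery rate of Ints7 for positive change was 0.931 per the authors' deposited table. Reading positive values as more guides in MERVL-positive cells is thus plausible but not settled. With the other reading every direction below turns. The positive direction is called enrichment and the negative one depletion. A guide is called up or down where it is past the guide threshold of the authors' deposited table in that direction, a loose threshold that 39.6% of guides against microRNAs passed upward and 36.5% downward.

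MicroRNAs are short RNAs cut from hairpin precursors by Drosha and Dicer. Loaded on an Argonaute protein, they repress mRNAs that pair with their seed, bases 2 to 8 from the 5′ end. let-7 microRNAs accumulate as cells differentiate, and in embryonic stem cells the RNA-binding protein Lin28a holds their maturation back. The miR-34 microRNAs are induced by p53, and miR-34a has been reported to repress MERVL in mouse embryonic stem cells. miR-449 shares the seed of miR-34 and is known from multiciliated cells, while the miR-200 family keeps epithelial cells epithelial by repressing Zeb1 and Zeb2. Because microRNAs of 1 seed share targets, the mature sequences below show which entries could stand in for each other.

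The let-7 sequences, from RefSeq on GRCm38.p6, are shown with bases 2 to 8 in capitals. They come from pairs of hairpins that make the same microRNA, and from let-7j, whose seed differs.

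let-7a-5p: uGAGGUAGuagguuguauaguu
let-7c-5p: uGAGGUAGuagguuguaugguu
let-7f-5p: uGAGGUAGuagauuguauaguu
let-7j: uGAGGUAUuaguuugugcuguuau

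Of the 14 let-7 entries, 13 hold the seed GAGGUAG and let-7j holds GAGGUAU. let-7a-1 and let-7a-2 carry the first of these sequences, let-7c-1 and let-7c-2 the second, and let-7f-1 and let-7f-2 the third. Counted from 1 at the 5′ end, let-7c-5p differs from let-7a-5p by A19G and let-7f-5p by G12A, both outside the seed.

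The miR-34 and miR-449 sequences, shown because these subfamilies share a seed and had medians on different sides of 0, also have bases 2 to 8 in capitals.

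miR-34a-5p: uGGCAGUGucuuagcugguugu
miR-34b-5p: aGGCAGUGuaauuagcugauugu
miR-449a-5p: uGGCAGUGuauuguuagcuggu
miR-449c-5p: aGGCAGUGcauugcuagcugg

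Compared base by base from the 5′ end without gaps, miR-449a-5p differs from miR-34a-5p at 7 positions, all outside the seed. A stretch that both share at shifted positions counts as different in this comparison. No sequence is shown for miR-34c-5p and miR-449b.

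The miR-200 sequences fall into 2 seed groups, again in capitals, and each group has members in both genomic clusters of the family.

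miR-200a-3p: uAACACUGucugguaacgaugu
miR-141-3p: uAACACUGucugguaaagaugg
miR-200b-3p: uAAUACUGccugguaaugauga
miR-429-3p: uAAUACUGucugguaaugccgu
miR-200c-3p: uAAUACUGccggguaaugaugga

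miR-200a-3p and miR-141-3p share AACACUG, and miR-200b-3p, miR-429-3p and miR-200c-3p share AAUACUG. Mature sequences of the expected arm were found for 23 of the 25 entries, with 20 distinct sequences.

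No member passed a false discovery rate (FDR) of 0.05 in either direction per the authors' deposited table, where the lowest rate among the members was 0.985 for enrichment and 0.999 for depletion. Over all entries of the authors' deposited table, 0.0% passed for enrichment and 0.00444% for depletion. let-7b, let-7a-1 and miR-34b, 12.0% of the 25 members, were the 3 with an unadjusted enrichment p under 0.05 per the authors' deposited table. The background share was 4.95% over all entries and 4.59% over microRNA entries, so that a single entry of the 25 counts for almost as much as the whole background. An unadjusted depletion p under 0.05 was held by 0 of 25 members, against 5.08% of all entries and 4.77% of microRNA entries per the authors' deposited table. At a threshold of 0.1, 7 members passed for enrichment, or 28.0%, per the authors' deposited table, against 10.1% of microRNA entries and 9.95% of all entries. Besides the 3 above, these were let-7a-2, miR-34a, miR-429 and miR-449c. The guides of these 7 did not all go upward. miR-449c had a log2 fold change of -0.49 with 1 guide up and 2 down per the authors' deposited table. let-7b and miR-429 each had 2 guides up and 2 down. No member passed for depletion at 0.1 per the authors' deposited table, against 8.13% of microRNA entries and 10.1% of all entries. At 0.01, where 0 of 25 members passed in either direction, 1.06% of microRNA entries and 1.05% of all entries were enriched, and 0.795% and 1.14% were depleted, per the authors' deposited table.

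The median log2 fold change over the 25 members was 0.18, against 0.016 over all microRNA entries, -0.018 over all entries and 0.019 over the single non-targeting guides. Above 0 lay 15 of the 25, or 60.0%, per the authors' deposited table, where 51.1% of microRNA entries and 48.3% of all entries did. The members' log2 fold changes ran from -0.76 in miR-200c to 0.90 in miR-34c per the authors' deposited table. Of the 914 microRNA entries with 4 guides, the quartiles lay at -0.35 and 0.38, the lowest 5% below -1.08 and the highest 5% above 0.83. Between the quartiles lay 13 members, with 8 above the upper and 4 below the lower one. Only miR-34c stood above the upper 5% limit, and no member stood below the lower one. The order of the members cannot be set against an error, since no value per library exists.

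Of the 98 guides, 42 were up, 32 were down and 24 were neither per the authors' deposited table. The share up was 42.9% (exact 95% interval 32.9 to 53.3, counting error only), and 39.6% of the guides of all microRNA entries were up. The share down was 32.7% (exact 95% interval 23.5 to 42.9), against 36.5% over all microRNA entries. Both intervals hold the shares of all microRNA entries. Guides of 1 entry share a target, so they are not independent and the intervals are too narrow.

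All 3 miR-34 entries had a positive log2 fold change, and all 3 miR-449 entries had a negative one. The miR-449 side is weak, since miR-449a stood at -0.0091, above the median of -0.018 over all entries. miR-449c had an unadjusted enrichment p of 0.0728 and a depletion p of 0.501 per the authors' deposited table. miR-34a, the member reported to repress MERVL, had a log2 fold change of 0.31 per the authors' deposited table, a ratio of 1.24. Of its 4 guides 2 were up and 1 was down per the authors' deposited table, with an unadjusted enrichment p of 0.074 and a deposited FDR of 0.985. By size of fold change, 28.7% of microRNA entries stood above it. The gene lies on chromosome 4 from 150068454 to 150068555 on the plus strand of GRCm38.p6.

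miR-34b and miR-34c come from hairpins 451 bases apart on the minus strand of chromosome 9, from 51103034 to 51103110 for miR-34c and from 51103562 to 51103645 for miR-34b. miR-34b had a log2 fold change of 0.40 with 3 guides up and none down, and an unadjusted enrichment p of 0.0455 per the authors' deposited table. For miR-34c the authors' deposited table gives 0.90, a ratio of 1.86, the highest value among the members, with 2 guides up, 1 down and 1 neither. Only 3.36% of microRNA entries had a higher log2 fold change than miR-34c, yet its unadjusted enrichment p was 0.134 per the authors' deposited table. The orders by fold change and by p thus differ for this pair. Together the 12 guides against miR-34 gave 7 up and 2 down per the authors' deposited table. The shares were 58.3% up (exact 95% interval 27.7 to 84.8) and 16.7% down (2.1 to 48.4). Both intervals hold the shares of all microRNA entries, 39.6% up and 36.5% down.

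Both hairpins lie within the spans of 2 protein-coding genes of the RefSeq table, which gives gene spans and not exons, counted on either strand. Guides against the first, 4833427G06Rik, had a log2 fold change of 0.55, and those against Btg4, which drives removal of maternal mRNA, one of 0.0013 per the authors' deposited table. Neither gene had an unadjusted p under 0.05 in either direction per the authors' deposited table.

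miR-449a, miR-449b and miR-449c form a cluster on chromosome 13, from 113035983 at the start of miR-449c to 113037624 at the end of miR-449a, within the span of Cdc20b, a gene of multiciliated cells. Their log2 fold changes were -0.0091, -0.34 and -0.49 per the authors' deposited table. Of their 11 guides, 2 were up and 5 down per the authors' deposited table. The shares were 18.2% up (exact 95% interval 2.3 to 51.8) and 45.5% down (16.7 to 76.6). These intervals, too, hold the shares of all microRNA entries. Guides against Cdc20b itself had a value of -0.11 per the authors' deposited table. miR-449c combined the lowest log2 fold change of the cluster with an unadjusted enrichment p of 0.0728, with 1 guide up and 2 down per the authors' deposited table. For this entry, too, the sign of the fold change and the enrichment rank, 1813 of 22510, point different ways. miR-449a had no guide up and 3 of 4 guides neither up nor down per the authors' deposited table.

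With 1 seed in the 4 entries whose mature sequence was found, miR-34 and miR-449 thus had medians on different sides of 0. These medians were 0.40 and -0.34 over 3 entries each, with miR-449a almost at 0. The difference between them was not tested, since it was noticed in the values and no library values exist. The joint median of the 6 was 0.15, and it became -0.0091 when any 1 of the 3 miR-34 entries was left out. It became 0.31 when any 1 of the 3 miR-449 entries was left out.

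The 14 let-7 entries had a median of 0.18, with 9 above 0. let-7a-1 had the highest value of the family, 0.75 or a ratio of 1.68, with 4 of 4 guides up per the authors' deposited table. Its unadjusted enrichment p was 0.0357 at a deposited FDR of 0.985 per the authors' deposited table. All 4 guides were up in 27 of the 914 microRNA entries with 4 guides per the authors' deposited table. let-7a-2, which makes the same mature microRNA from chromosome 9 (41536716 to 41536811, plus strand), had a value of 0.47 with 3 guides up and none down, and an unadjusted enrichment p of 0.0897 per the authors' deposited table. Of the 3 pairs of hairpins with a shared product, let-7a was the only one with both values above 0.

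let-7c-1 on chromosome 16 (77599657 to 77599750, plus strand) had a value of 0.42 and let-7c-2 on chromosome 15 one of -0.21 per the authors' deposited table. let-7f-1 on chromosome 13 had a value of -0.59 and let-7f-2 on the X chromosome one of 0.18 per the authors' deposited table. For let-7c and let-7f, hairpins with an identical product therefore stood on opposite sides of 0. let-7f-1 had 3 of 4 guides down and an unadjusted depletion p of 0.239 per the authors' deposited table.

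let-7b reached the best enrichment rank of all members, 447 of 22510, with an unadjusted p of 0.0173 and a log2 fold change of 0.57 per the authors' deposited table. It lies on chromosome 15 from 85707319 to 85707403 on the plus strand. Its guides were split, 2 up and 2 down, per the authors' deposited table. A split of 2 and 2 occurred in 4 of the 23 members with 4 guides, and in 10.9% of the microRNA entries with 4 guides. Besides let-7b these were let-7c-2, miR-98 and miR-429, and the best enrichment rank among the members thus belongs to an entry whose guides were split.

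let-7g, within the span of the histone methylation cofactor gene Wdr82 on chromosome 9 (106178840 to 106178927, plus strand), had the lowest value of the let-7 family, -0.75, with 2 guides down and 1 up per the authors' deposited table. Guides against Wdr82 were at 0.49 on the log2 scale, with 3 of 4 up and none down, per the authors' deposited table, a direction opposite to that of let-7g. let-7i lies on chromosome 10 (122985640 to 122985724, minus strand), let-7j on chromosome 3 (140028249 to 140028370, plus strand), let-7k on chromosome 5 (147283189 to 147283298, minus strand) and let-7e on chromosome 17 (17830352 to 17830444, plus strand). let-7d had a value of 0.43, let-7e one of 0.20 and let-7k one of 0.19 per the authors' deposited table. For let-7i the authors' deposited table gives -0.056 and for miR-98 it gives -0.023. let-7j, the entry with the other seed, had a value of 0.035 with no guide up and 1 down per the authors' deposited table. The unadjusted p of each of these 6 entries exceeded 0.05 in both directions per the authors' deposited table.

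The 25 members lie at 15 loci on 11 chromosomes, where hairpins within 10 kb count as 1 locus, and 7 loci hold more than 1 member. The 10 pairs of neighbouring hairpins were 35 to 1714 bases apart, and their log2 fold changes differed by 0.15 to 1.34, with a median of 0.47. All members lay above 0 at 2 of the 7 clusters, all below 0 at 2, and on both sides at 3. These counts and differences are not set against unlinked microRNA entries. In the clusters below 0, miR-449a (-0.0091) and miR-141 (-0.035) lay close to 0. The largest gap was between let-7a-1 and let-7f-1, which are separated by 261 bases on the minus strand of chromosome 13. Their hairpins, with the mature microRNA in capitals, show how alike these targets are.

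let-7a-1 at chr13:48538179-48538272: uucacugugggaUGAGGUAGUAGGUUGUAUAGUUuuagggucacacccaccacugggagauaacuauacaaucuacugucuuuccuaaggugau
let-7f-1 at chr13:48537829-48537917: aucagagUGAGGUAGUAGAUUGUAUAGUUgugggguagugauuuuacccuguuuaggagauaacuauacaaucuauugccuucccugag

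let-7d, the next hairpin of this cluster, lies 1714 bases beyond let-7f-1 and had 3 guides up and 1 down per the authors' deposited table. Of the 12 guides against the cluster, 8 were up and 4 down, and 3 of the 4 down belong to let-7f-1 per the authors' deposited table. Over all microRNA entries, 39.6% of guides were up and 36.5% down. On chromosome 15, let-7c-2 and let-7b lie 621 bases apart with values of -0.21 and 0.57 per the authors' deposited table. On the X chromosome, let-7f-2 and miR-98 lie 785 bases apart within Huwe1, a ubiquitin ligase gene, whose own guides had a value of 0.39 with 3 up and none down per the authors' deposited table.

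Other microRNA entries within 10 kb of let-7 members on the same strand were miR-100, miR-99a, miR-99b and miR-125a. miR-99b, 94 bases from let-7e, had a log2 fold change of 0.93 and an unadjusted enrichment p of 0.00857, with 2 of 4 guides up and 1 down, per the authors' deposited table. For miR-125a, 367 bases from let-7e on its other side, the authors' deposited table gives 0.36. These hairpins lie within the span of Spaca6, a sperm protein gene, whose guides had a value of -0.39 per the authors' deposited table. miR-99a, next to let-7c-1, had 0.41, and miR-100, near let-7a-2, had -0.065 per the authors' deposited table.

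In the miR-200 family, all 3 hairpins of the chromosome 4 cluster lay above 0 and both hairpins of the chromosome 6 cluster below. miR-200a, miR-200b and miR-429 had log2 fold changes of 0.56, 0.12 and 0.34 per the authors' deposited table. miR-429 had the lowest unadjusted enrichment p of the family, 0.0526, with 2 guides up and 2 down per the authors' deposited table. miR-200a had 2 guides up and none down per the authors' deposited table. On chromosome 6, 336 bases apart, miR-141 had a value of -0.035 and miR-200c one of -0.76 per the authors' deposited table. The lowest value of all members was that of miR-200c, with 2 guides down, 1 up and an unadjusted depletion p of 0.253 per the authors' deposited table.

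The chromosome 4 cluster runs from 156053905 at miR-429 to 156055750 at miR-200b, and the chromosome 6 cluster from 124717914 at miR-141 to 124718390 at miR-200c, both on the minus strand. None of the 5 miR-200 hairpins lies within the span of a protein-coding gene in the RefSeq table.

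The seed groups of the family did not follow this division. Within AACACUG, miR-200a had 0.56 and miR-141 had -0.035, and within AAUACUG the values were 0.34 for miR-429, 0.12 for miR-200b and -0.76 for miR-200c per the authors' deposited table. The chromosome 4 cluster had a median of 0.34 with 5 of 12 guides up and 3 down, and the chromosome 6 cluster one of -0.40 with 3 of 8 up and 3 down, per the authors' deposited table. Among the guides of all microRNA entries, 39.6% were up and 36.5% down. With 2 entries on one side and 3 on the other, the difference between the clusters was not tested.

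A possible SpCas9 target was taken as 20 bases followed by NGG within the hairpin, on either strand. The guide sequences of the library were not used here, so these are sites that exist in the hairpins and not the guides that were made. The 24 hairpins in the RefSeq table held 185 such sites, from 3 to 15 per hairpin. Those of miR-34a, miR-34b, miR-34c and miR-449a held 3 each, fewer than the 4 guides of each entry. Sites within 3 mismatches of one in another member's hairpin numbered 47, in 14 hairpins, of which 12 were of the let-7 family and the other two were miR-200b and miR-200c. No hairpin of miR-34 or miR-449 held one. let-7a-2 and let-7c-1 shared 1 identical stretch of 20 bases, which runs over the seed on the strand opposite to the microRNA. It is shown with the NGG of each hairpin in capitals, and these differ in their first base.

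let-7a-2 site: tacaacctactacctcaaccTGG
let-7c-1 site: tacaacctactacctcaaccCGG

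Setting aside the 14 hairpins with such sites removes 12 of the 14 let-7 entries, let-7a-1 and let-7b among them. Of the 3 members with an unadjusted enrichment p under 0.05, this left 1, miR-34b. With so many entries removed, the count could fall from 3 to 1 by the removal alone. Whether guides of one let-7 entry cut at another was not tested.

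The proteins that make and hold back let-7 were read from the same table, with 0 of 12 genes at an unadjusted p under 0.05 in either direction per the authors' deposited table. The median log2 fold change of the 12 was 0.25, with 9 above 0. Lin28a, which blocks let-7 maturation, had a value of 0.58 with 4 of 6 guides up and an unadjusted enrichment p of 0.0551 per the authors' deposited table. Other genes of the list with an unadjusted p under 0.1, chosen after their values were seen, lay on both sides. Over all entries, 9.95% passed 0.1 for enrichment and 10.1% for depletion per the authors' deposited table. The other lists, read at 0.05 only, also held genes under 0.1 on both sides, so such values were not particular to this list. Of the let-7 targets, E2f5 stood at -1.17 with 4 of 4 guides down and a depletion p of 0.0642 per the authors' deposited table. Igf2bp2, also a let-7 target, stood at 0.70 with 4 guides up, 2 down and an enrichment p of 0.0792 per the authors' deposited table. In the let-7 maturation list, Dis3l2, the nuclease that degrades let-7 precursors marked through Lin28a, stood at -0.74. It had 5 of 6 guides down, 1 up and a depletion p of 0.0577 per the authors' deposited table. Dgcr8, the partner of Drosha, stood at -1.53 with 4 of 6 guides down, none up and a depletion p of 0.0847 per the authors' deposited table. Xpo5, which exports precursors from the nucleus, stood at 0.45 with 5 of 6 guides up, none down and an enrichment p of 0.0774, and Ago2, an Argonaute protein, at 0.24 with an enrichment p of 0.0946, per the authors' deposited table. Among the 14 let-7 targets, which include Hmga2, Myc and Igf2bp1, none had an unadjusted p under 0.05 per the authors' deposited table, and 5 lay above 0 with a median of -0.096.

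Of 19 genes listed for p53 and as targets of miR-34 or miR-449, 2 were enriched and 1 was depleted at an unadjusted p under 0.05 per the authors' deposited table. Over all entries the shares were 4.95% for enrichment and 5.08% for depletion. The receptor tyrosine kinase gene Met had a log2 fold change of 0.72 (p = 0.0458) and the receptor gene Notch1 one of 0.41 (p = 0.0466) per the authors' deposited table. Each had 4 of 6 guides up and 1 down per the authors' deposited table. The gene for the growth factor receptor Pdgfra had a value of -0.24 with a depletion p of 0.0424 per the authors' deposited table. Gata2, the transcription factor reported as the miR-34a target behind MERVL activation, had a value of 0.090 with 2 guides up and 2 down, and Trp53, which induces miR-34, one of -0.30 per the authors' deposited table. Neither Gata2 nor Trp53 had an unadjusted p under 0.05 per the authors' deposited table, and the median of the 19 was -0.071.

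Of 14 miR-200 targets and epithelial genes, 2 were depleted and none enriched at an unadjusted p under 0.05 per the authors' deposited table. The shares over all entries were 5.08% for depletion and 4.95% for enrichment. Zeb1, the repressor of epithelial genes that miR-200 targets, was at -2.15 on the log2 scale, with 5 of 6 guides down and 1 up, and a depletion p of 0.0441 per the authors' deposited table. Grhl2, an epithelial transcription factor, had a value of -0.50 with 5 of 5 guides down and a depletion p of 0.017 per the authors' deposited table. Other epithelial genes of the list, named after their values were seen, mostly lay above 0. Epcam stood at 0.50 with 5 of 6 guides up, Cdh1 at 0.28, Ovol1 at 0.21, Ovol2 at 0.024 and Esrp1 at -0.38 per the authors' deposited table. Zeb2, the paralog of Zeb1, had a value of 0.29 with 3 guides up and 1 down per the authors' deposited table. The median log2 fold change of the 14 miR-200 targets and epithelial genes was 0.13, with 9 above 0. Every gene named from these 4 lists had a false discovery rate above 0.9 in both directions per the authors' deposited table. Over the 58 genes of the 4 lists, 2 passed for enrichment and 3 for depletion per the authors' deposited table, close to the background shares given above.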

How the data were processed

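Guide abundance was compared between 2 libraries of MERVL-positive and 2 of total cells. The authors deposited 1 table whose headers are those of a MAGeCK gene summary. MAGeCK and mm10 appear in the submitters' processing notes. Version, settings, normalization and treatment group were not given in the sources used here. Per the file headers, each entry has a log2 fold change, identical in both of its columns, and for each direction a score, a p-value and its FDR, all taken as deposited. The score, its rank and the numbers of guides were deposited beside them. No model was fitted, since the deposited table has no value per library.

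Medians, counts and guide shares were computed with Python 3.11.15 and pandas 2.3.3, and exact binomial intervals with scipy 1.17.1. All 25 members matched a gene of the RefSeq table for GRCm38.p6 by symbol or synonym, 24 with a hairpin sequence. The scan for target sites was tested on made-up sequences. Every member is named, as are host genes, neighbouring microRNAs, list genes with an unadjusted p under 0.05, and Lin28a, Gata2, Zeb1, Zeb2 and Trp53. The members and lists were chosen with earlier results of these data known, and no p was adjusted over a list alone. Thresholds, centring, guide minimum, averaging and sign were varied.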

Additional observations from a re-analysis of the deposited data

How the results depend on the processing

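No paired analysis was possible because the table has no value per library, and for the same reason no library could be left out. Turning the sign gives medians of -0.18 for all members, -0.18 for let-7, -0.15 for miR-34 with miR-449 and -0.12 for miR-200, and takes the count of members above 0 from 15 to 10 of 25. Averaging each genomic cluster first turned the miR-200 median to -0.028, since this leaves 1 value for each of its clusters. Leaving out any miR-34 entry turned the median of miR-34 with miR-449 to -0.0091, and leaving out any miR-449 entry raised it to 0.31. The count of members with an unadjusted enrichment p under the threshold went from 3 to 0 at 0.01 and to 7 at 0.1. It went to 1 without the 14 hairpins that hold a site close to one in another member, an alternative chosen after seeing the data. That alternative removes most let-7 entries, so the count could fall by the removal alone. Of 42 alternatives, 6 turned a median and 3 moved a count by over 1.5 times. Those 6 include the turned sign of each median, an outcome fixed in advance. The others of the 6 are the averaged miR-200 clusters and the left-out miR-34 entry, so the tally does not measure robustness. The remaining 33 include the turned count above 0, which went from 15 to 10. The others of these 33 kept the direction of a median, a count within 1.5 times or a share of guides within its interval. Among them was a false discovery rate threshold of 0.25, which 0 members passed in either direction. With 0.985 as the lowest rate among the members, that outcome was also fixed in advance. At 3.84 sorted cells per guide, a missing call does not show that a microRNA has no effect.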

Other observations

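Outside the 3 families, 2 other microRNA entries make a product with a seed found among the let-7 entries. They were chosen by sequence, after their values were seen. miR-1961 holds the common let-7 seed GAGGUAG and stood at 0.79 on the log2 scale, with 3 of 4 guides up, none down and an unadjusted enrichment p of 0.0681 per the authors' deposited table. miR-202, whose 3p arm holds GAGGUAU as let-7j does, had a value of -2.92 per the authors' deposited table, with 4 of 4 guides down. Only 2 of the 1132 microRNA entries had a lower value than miR-202. Its unadjusted depletion p was 0.0104 at a deposited FDR of 0.886 per the authors' deposited table. let-7j, with the same seed, had a value of 0.035 per the authors' deposited table.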
